A study of Mus musculus with 12 samples.

Results

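Bcl2l1, Birc3, Bak1, Bad and Dapk3 are 5 regulators of cell survival and death. They were followed across cultured mouse cells labelled as aortic endothelial. The labels name the cells as wild type or as null for the ETS transcription factors Ets1, Ets2 or both. The 5 genes were read from every probe set that the array annotation assigns to exactly 1 of these symbols. That gave 6 of 20523 probe sets, 2 for Bad and 1 for each of the others, and 5 of 11015 genes. The genes were chosen on results of these same arrays, mainly their low log2 readings in the arrays labelled DKO, so their differences between those arrays and the other groups are described without a test. The comparisons of Ets1KO and of Ets2KO with WT were tested.

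By the labels, aortic endothelial cells of 4-week-old mice were put in culture, infected with a lentivirus and profiled on Affymetrix arrays. The samples labelled DKO were Ets1-/- with floxed Ets2 alleles (Ets2fl/fl) and received the lentivirus carrying eGFP and Cre. Ets1KO cells had the same alleles, Ets1-/- and Ets2fl/fl, with the eGFP virus that lacks Cre. Ets2KO cells were Ets1+/+ and Ets2fl/fl with the eGFP and Cre virus. WT cells were Ets1+/+ and Ets2+/+ with the eGFP virus. The labels disagree for the single knockouts: the titles and genotypes name Ets1KO and Ets2KO as null for their gene, as followed here, while their description fields call that gene wild type. All groups carried an eGFP lentivirus, and Cre and loss of Ets2 cannot be told apart against WT. Each group has 3 columns of values, titled as biological replicates. Whether separate animals were used was not stated in the labels. By the sex markers given below, WT replicate 1 read male and WT replicates 2 and 3 female. The WT arrays thus do not read as repeats of 1 animal. P-values measure the spread between these arrays, which within the other groups may be technical.

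Values are log2 expression. DKO column 3 matched the average of DKO columns 1 and 2 in 20521 of 20523 probe sets (tolerance 1e-05) and was left out of the fits, which used 11 arrays, with n = 2 for DKO and n = 3 for the other groups. Array medians were 8.29 and 8.30 in the arrays labelled DKO, against 9.05 to 9.15 in the 9 others. Differences that involve DKO are therefore given as deposited and relative to array medians, meaning after each array's median was subtracted. The median gene differed from WT by -0.61 as deposited and by 0.18 relative to array medians in DKO, and by 0.01 in Ets1KO and -0.02 in Ets2KO as deposited. The targeted genes bore out the DKO label only in part. The 4 Ets1 probe sets differed between DKO and WT by -1.999, -0.61, -0.017 and 0.10 as deposited, and by -1.20, 0.18, 0.78 and 0.90 relative to array medians. As deposited only the first was called (limma adjusted p = 0.000288). In Ets1KO the same probe sets differed from WT by -0.50, -0.70, -1.22 and -1.31 as deposited, none of them called. In Ets2KO, labelled Ets1+/+, they differed from WT by -0.54, -0.64, -0.27 and -0.41 as deposited, also not called. The first 2 were thus about as low in Ets2KO as in Ets1KO. The 2 Ets2 probe sets differed from WT by 0.18 and -0.20 as deposited and by 0.98 and 0.59 relative to array medians in DKO, and by -0.44 and -0.18 as deposited in Ets2KO, where neither was called. Of 12 endothelial markers listed, 4 were measured (Kdr, Flt1, Eng and Cd34); Pecam1, Cdh5, Tek, Tie1, Vwf, Emcn, Esam and Robo4 were not analysed here. The mean of the measured 4 lay between -1.02 and -0.50 relative to the array median in DKO, between -1.48 and -1.24 in Ets1KO, between -0.69 and 0.52 in Ets2KO and between -1.04 and 0.77 in WT. In WT Kdr averaged -1.65 and Flt1 -1.24 relative to the array median, and Eng 0.43 and Cd34 1.57. By group mean, 0 of the 4 lay above the array median in Ets1KO, where Eng averaged -0.84 and Cd34 -1.72. The count was 1 in DKO (Flt1), 2 in Ets2KO and 2 in WT. The mean of 6 measured fibroblast markers was 1.49 to 1.77 in WT, but its members were split. Col1a2 averaged 4.19, Col3a1 4.10, Col1a1 3.34 and Pdgfra 3.06 there, and Dcn -1.64 and Lum -3.27. The endothelial label was thus borne out only in part by these markers. By Xist and the Y-linked Eif2s3y, the 3 Ets2KO arrays and WT replicate 1 read male and the other arrays female.

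Cells die by apoptosis when the mitochondrial outer membrane is opened by effectors of the BCL2 family. Bcl2l1 encodes Bcl-xL, which holds the effectors in check. Bak1 encodes one of those effectors, and Bad encodes a BH3-only protein that binds Bcl-xL and takes it away from its partners. Birc3 encodes the ubiquitin ligase cIAP2, which acts at the tumour necrosis factor receptor, favours survival signalling through NF-kappa-B and is itself an NF-kappa-B target. Dapk3 encodes a serine/threonine kinase of the death-associated protein kinase family, also called ZIP kinase, which phosphorylates myosin light chain and has been linked to cell death. ETS factors bind DNA around a GGAA core, and Ets1 and Ets2 have been tied to endothelial survival.

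Promoter windows are shown because the samples differ in ETS factors and because 4 of the 5 genes were low together in the arrays labelled DKO on both scales. RefSeq windows of build GRCm38.p6 run from 250 bases before to 50 bases after an annotated start and were found for 5 of 5 genes, 10 windows in all. For each gene the window with the most GGAA cores (ties went to the one with more CCGGAA) is printed, 5′ to 3′ on the gene's strand, with the core in capitals on either strand (GGAA or TTCC). The windows lie at chr2:152831679-152831978 (minus strand) for Bcl2l1, chr9:7873121-7873420 (minus) for Birc3, chr17:27028578-27028877 (minus) for Bak1, chr19:6942312-6942611 (plus) for Bad and chr10:81183013-81183312 (plus) for Dapk3.
Bcl2l1: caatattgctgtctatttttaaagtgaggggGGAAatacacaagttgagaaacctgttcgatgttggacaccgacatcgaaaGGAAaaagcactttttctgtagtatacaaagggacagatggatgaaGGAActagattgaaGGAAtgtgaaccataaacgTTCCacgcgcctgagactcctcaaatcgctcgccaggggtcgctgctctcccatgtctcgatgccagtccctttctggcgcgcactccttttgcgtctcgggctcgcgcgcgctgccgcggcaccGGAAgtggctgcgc
Birc3: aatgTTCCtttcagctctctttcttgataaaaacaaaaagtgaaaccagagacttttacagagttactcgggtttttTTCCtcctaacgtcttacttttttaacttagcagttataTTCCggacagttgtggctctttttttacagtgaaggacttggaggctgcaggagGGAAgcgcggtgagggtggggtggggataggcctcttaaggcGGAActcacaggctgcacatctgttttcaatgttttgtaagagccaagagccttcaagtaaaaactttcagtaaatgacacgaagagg
Bak1: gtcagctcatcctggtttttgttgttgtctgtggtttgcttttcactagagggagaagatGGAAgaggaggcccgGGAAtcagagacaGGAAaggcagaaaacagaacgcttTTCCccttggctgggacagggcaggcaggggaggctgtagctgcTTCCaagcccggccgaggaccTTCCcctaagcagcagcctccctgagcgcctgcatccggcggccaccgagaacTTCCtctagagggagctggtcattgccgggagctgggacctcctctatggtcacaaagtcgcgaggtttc
Bad: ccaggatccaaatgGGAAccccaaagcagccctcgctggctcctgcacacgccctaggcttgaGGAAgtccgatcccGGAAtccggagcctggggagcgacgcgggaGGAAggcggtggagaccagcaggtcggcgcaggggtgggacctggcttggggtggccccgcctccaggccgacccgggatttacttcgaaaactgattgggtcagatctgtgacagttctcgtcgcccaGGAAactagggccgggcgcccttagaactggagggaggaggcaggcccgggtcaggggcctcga
Dapk3: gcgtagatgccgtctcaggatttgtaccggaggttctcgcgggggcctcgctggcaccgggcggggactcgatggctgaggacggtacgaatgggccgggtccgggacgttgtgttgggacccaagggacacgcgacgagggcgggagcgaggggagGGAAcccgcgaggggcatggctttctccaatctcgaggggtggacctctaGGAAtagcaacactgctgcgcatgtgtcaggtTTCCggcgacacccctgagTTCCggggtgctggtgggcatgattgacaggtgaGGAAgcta

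The core alone was found in 10 of 10 windows of these genes and in 96.0% of all 32851 promoter windows. The longer CCGGAA, searched on both strands and overlapping the core, was found in 5 of 10 windows and in 14.9% of all windows. In the printed windows it occurs once in Bcl2l1, Birc3 and Bad, at 2 places in Dapk3 and not in Bak1. CCGGAAGT, which overlaps both shorter motifs, was found in 1 of 10 windows, the Bcl2l1 window shown, and in 3.89% of all windows. The 10 windows belong to 5 genes, with 3 for Bcl2l1, 3 for Dapk3 and 2 for Bad, so they do not count as separate genes. These matches describe the letters of the windows, and binding was not measured.

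Bcl2l1, the pro-survival member, read 5.25 and 5.58 in the arrays labelled DKO, against 10.17, 9.84 and 9.71 in Ets1KO, 9.82, 10.13 and 9.35 in Ets2KO and 10.25, 9.48 and 8.60 in WT. The arrays labelled DKO lay below every other array, while the other groups overlapped each other. Its probe set, 1420887_a_at, is of a type that matches several transcripts of 1 gene, so the long and short Bcl2l1 isoforms were not separated. The DKO difference from WT was -4.03 (SE 0.42) as deposited, a level 16.3-fold lower, and -3.23 (SE 0.44) relative to array medians, 9.39-fold lower. Against Ets1KO, which has the same alleles without Cre, it was -4.49 as deposited and -3.65 relative to array medians, and against Ets2KO -4.35 and -3.58. Of all 20523 probe sets, Bcl2l1 had the 108th lowest difference between DKO and WT.

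Dapk3, the kinase, had the lowest DKO readings of the 6 probe sets relative to its own level in the other groups. It read 4.58 and 4.74 in the arrays labelled DKO, against 9.19, 9.38 and 9.31 in Ets1KO, 9.63, 9.50 and 9.44 in Ets2KO and 8.91, 9.37 and 8.82 in WT. The DKO arrays again lay below every other array. The difference from WT was -4.37 (SE 0.18) as deposited, or 20.7-fold lower, and -3.58 (SE 0.17) relative to array medians, or 11.9-fold lower, the 60th lowest among all probe sets. Against Ets1KO it was -4.63 and -3.79 on these scales, and against Ets2KO -4.86 and -4.09. Ets2KO arrays lay above all others for this gene.

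**Figure D1:**
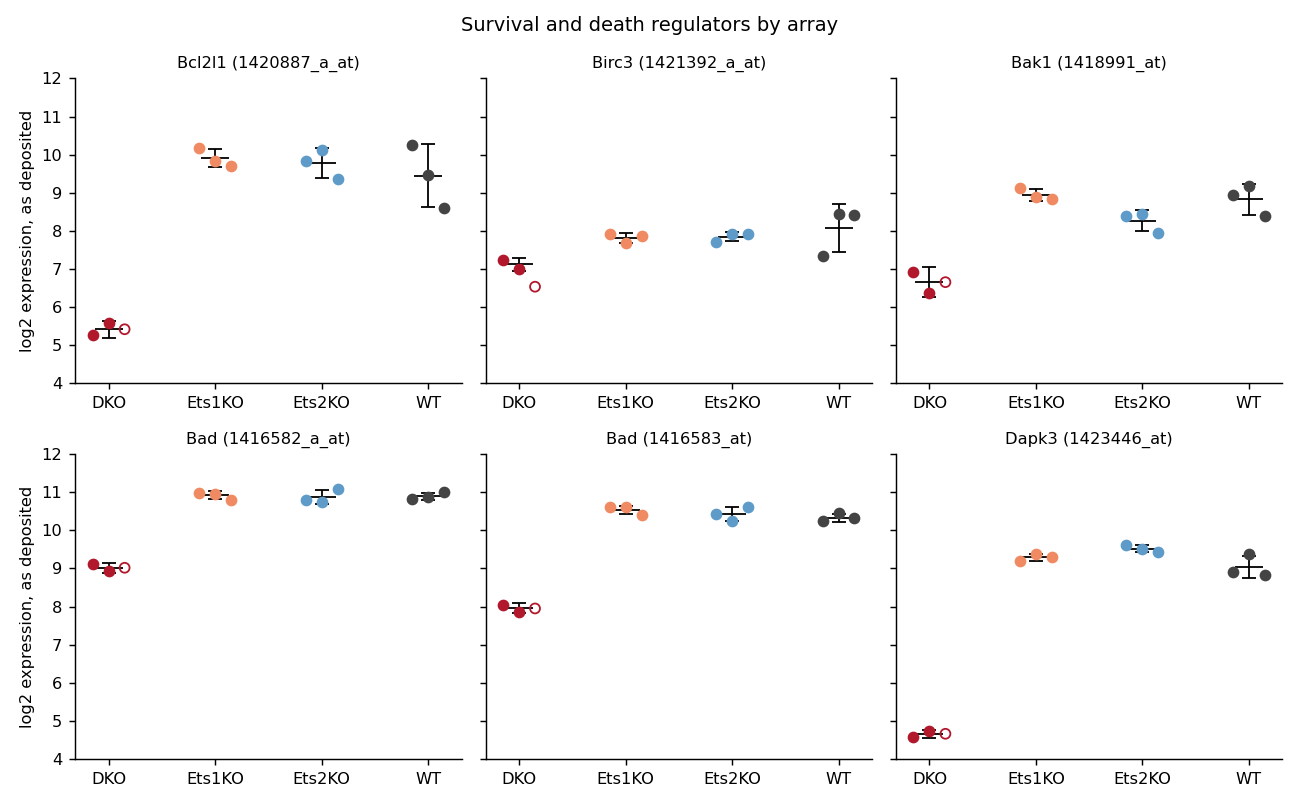
Each panel plots the deposited log2 expression (vertical axis) of 1 probe set in the DKO, Ets1KO, Ets2KO and WT arrays; points are arrays, bars are mean and SD over the arrays fitted (n = 2 for DKO, n = 3 otherwise), and the open point is DKO column 3, which was not fitted. The DKO points lie below those of the other groups in all 6 panels, furthest for Dapk3 and Bcl2l1 and least for Birc3, where the open point lies below the other DKO points.

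The death-promoting BCL2 family members read low in the arrays labelled DKO as well, by smaller amounts. Bak1, the effector, read 6.93 and 6.38 in DKO, against 9.11, 8.89 and 8.82 in Ets1KO, 8.40, 8.44 and 7.96 in Ets2KO and 8.93, 9.18 and 8.39 in WT. Its difference from WT was -2.18 (SE 0.27) as deposited and -1.38 (SE 0.27) relative to array medians. Against Ets2KO, the group with the next lowest Bak1, it was -1.61 and -0.84.

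Bad is the one gene of the 5 with several probe sets, and both moved the same way. Probe set 1416582_a_at read 9.11 and 8.93 in the arrays labelled DKO, against 10.99, 10.96 and 10.79 in Ets1KO, 10.81, 10.74 and 11.08 in Ets2KO and 10.82, 10.87 and 11.001 in WT. Probe set 1416583_at read 8.04 and 7.86 in DKO, against 10.60, 10.60 and 10.40 in Ets1KO, 10.42, 10.26 and 10.61 in Ets2KO and 10.23, 10.45 and 10.32 in WT. Outside DKO both stayed within a narrow band in which the groups overlapped. The differences between DKO and WT were -1.88 (SE 0.15) and -2.39 (SE 0.15) as deposited, and -1.09 and -1.59 relative to array medians. The gap between the probe sets, 0.50, compares with a median gap of 0.67 over 2859 genes with exactly 2 probe sets in the same comparison; in Ets1KO against WT that median was 0.12 and in Ets2KO against WT 0.17. Readings of other genes in the arrays labelled DKO thus differed more between probe sets than elsewhere, and Bcl2l1, Birc3, Bak1 and Dapk3 rest on 1 probe set each.

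Birc3, the IAP family ligase, differed least and is also the gene whose DKO column 3 departs from the mean of columns 1 and 2. It read 7.24 and 6.996 in DKO columns 1 and 2, against 7.92, 7.67 and 7.88 in Ets1KO, 7.71, 7.93 and 7.91 in Ets2KO and 7.35, 8.43 and 8.43 in WT. DKO column 3 read 6.53, a difference of -0.58 from the mean of columns 1 and 2, 7.12; Sphk1 is the other probe set that departs, by 0.10 upwards. WT replicate 1 lay closer to the DKO arrays than to the other WT arrays. As deposited the DKO difference from WT was -0.95 (SE 0.30), and relative to array medians it was -0.15 (SE 0.29), within its error. With all 3 columns it was -1.14 as deposited and -0.34 relative to array medians. Against Ets1KO the DKO difference was -0.70 as deposited and 0.14 relative to array medians, and against Ets2KO -0.73 and 0.04. Without WT replicate 2 or WT replicate 3 the DKO difference from WT was 0.01 relative to array medians, and without WT replicate 1 it was -0.49. With sex as a covariate the difference from Ets2KO was -0.97 for Birc3 and -2.29 for Bcl2l1 relative to array medians.

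Counted together, DKO arrays lay below all WT arrays for 6 of 6 probe sets as deposited, where 58.5% of all probe sets did so, and for 5 of 6 relative to array medians, where 22.7% did. Against Ets1KO the counts were 6 and 5 (62.7% and 23.2% of all probe sets), and against Ets2KO 6 and 5 (58.4% and 23.5%). The low DKO readings chose the genes, so nothing is read from these counts. The exception relative to array medians was Birc3 each time. The comparisons with DKO share the DKO arrays, and those with WT share the WT arrays. In these bulk samples fewer cells of a type and less RNA per cell cannot be told apart. The mean of 6 measured fibroblast markers (7 listed) was 2.44 to 3.11 relative to the array median in DKO. It was 1.16 to 1.78 in Ets1KO, 0.84 to 1.88 in Ets2KO and 1.49 to 1.77 in WT. As deposited, DKO and WT averaged 12.98 and 12.43 for Col1a1, 14.22 and 13.28 for Col1a2, and 13.27 and 13.19 for Col3a1. Dcn averaged 8.31 and 7.45, Lum 6.01 and 5.82, and Pdgfra, lower in DKO, 11.63 and 12.15. The part of these markers in the readings of the 5 genes was not tested.

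**Figure D2:**
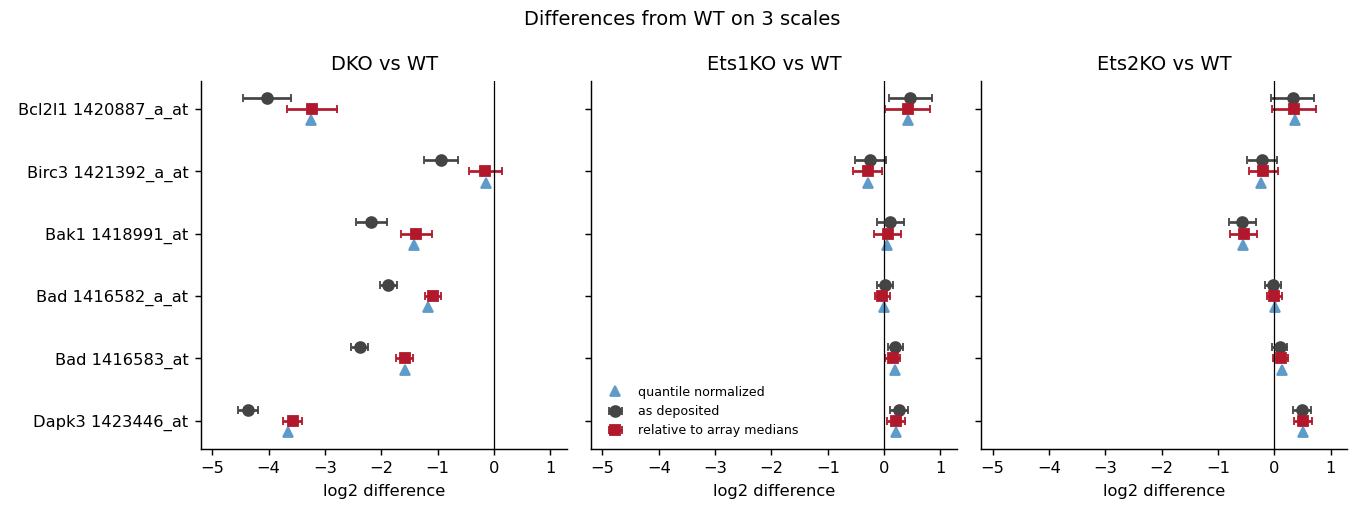
Log2 difference from WT (horizontal axes) of the 6 probe sets (rows) in DKO, Ets1KO and Ets2KO, as deposited (circles), relative to array medians (squares) and after quantile normalization (triangles); bars are the standard error of limma. In DKO the scale moves every value by about the same amount and brings Birc3 to -0.15, whereas Ets1KO and Ets2KO values hardly move and all lie between -0.56 and 0.52.

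**Figure D3:**
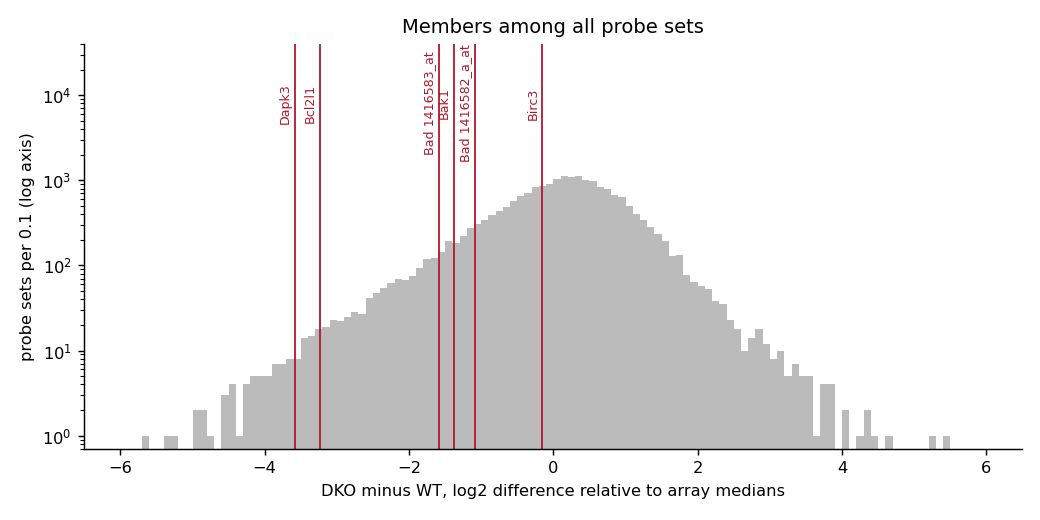
Histogram of the DKO minus WT difference relative to array medians (horizontal axis, log2) over all 20523 probe sets, with the number of probe sets on a log axis; red lines mark the 6 probe sets. Dapk3 and Bcl2l1 lie far in the lower tail, Bad and Bak1 on the lower shoulder and Birc3 near the centre.

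In cells labelled Ets1KO no change was detected in any of the 5 genes. Between Ets1KO and WT, 0 of 6 probe sets passed limma at an adjusted p below 0.05, where 0.00487% of all probe sets (1 in number) did, and 0 of 6 had an unadjusted p below 0.05, where 9.26% of all probe sets did. None had groups without overlap, where 18.5% of all probe sets did. Bcl2l1 averaged 9.91 ± 0.24 in Ets1KO and 9.44 ± 0.83 in WT (SD, n = 3 each), a difference of 0.46 with a 95% interval of -0.39 to 1.32 (limma adjusted p = 0.751). WT replicate 3 held much of that difference, which was 0.04 without it, and it was 0.87 without WT replicate 1. Birc3 averaged 7.82 ± 0.13 in Ets1KO and 8.07 ± 0.63 in WT, a difference of -0.24 (interval -0.85 to 0.36, limma adjusted p = 0.822). It was -0.06 without WT replicate 2 or WT replicate 3 and -0.61 without WT replicate 1.

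The remaining differences in Ets1KO were small. Dapk3 averaged 9.29 ± 0.10 in Ets1KO and 9.03 ± 0.30 in WT (difference 0.26, interval -0.10 to 0.62, limma adjusted p = 0.652). Bak1 averaged 8.94 ± 0.15 in Ets1KO and 8.83 ± 0.41 in WT (difference 0.11, interval -0.43 to 0.65, limma adjusted p = 0.920), and without WT replicate 3 the difference was -0.11. The Bad probe sets differed by 0.016 (interval -0.29 to 0.32) and 0.20 (interval -0.11 to 0.51), the first of them by -0.032 relative to array medians. The widest of these intervals, for Bcl2l1, does not exclude a change of more than 1 on the log2 scale, while the narrowest, for Bad, ends at 0.32. Exact permutation p-values were 0.2 to 1, where 3 against 3 arrays cannot go below 0.1.

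Floxed Ets2 together with Cre likewise gave no call among the 5 genes, though Dapk3 and Bak1 came nearest. Between Ets2KO and WT 0 of 6 probe sets passed limma at an adjusted p below 0.05, where 0.58% of all probe sets did; 2 of 6 had an unadjusted p below 0.05, where 20.7% of all probe sets did. Mean Dapk3 was 9.52 ± 0.10 in Ets2KO against 9.03 ± 0.30 in WT, which differ by 0.49 (SE 0.16, interval 0.13 to 0.85, limma adjusted p = 0.145, exact permutation p = 0.1). All Ets2KO arrays lay above all WT arrays, and also above all Ets1KO arrays, but the lowest Ets2KO reading, 9.44, exceeded the highest WT reading, 9.37, by little. Dapk3 was the 1 probe set of 6 whose groups did not overlap, where 28.4% of all probe sets had such groups. Mean Bak1 was 8.27 ± 0.27 in Ets2KO against 8.83 ± 0.41 in WT, with a difference of -0.56 (SE 0.24, interval -1.11 to -0.02, limma adjusted p = 0.228, exact permutation p = 0.3). WT replicate 3, at 8.39, lay among the Ets2KO arrays.

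Bcl2l1, Birc3 and Bad overlapped between Ets2KO and WT. Bcl2l1 averaged 9.77 ± 0.39 in Ets2KO, a difference from WT of 0.33 (interval -0.53 to 1.18, limma adjusted p = 0.665) that was 0.73 without WT replicate 1 and -0.10 without WT replicate 3. Birc3 averaged 7.85 ± 0.12 in Ets2KO, a difference of -0.22 (interval -0.83 to 0.39, limma adjusted p = 0.687) that was -0.58 without WT replicate 1 and -0.04 without WT replicate 2 or WT replicate 3. The Bad probe sets differed by -0.021 and 0.10, the first of them by 0.00066 relative to array medians. With sex as a covariate, which in effect sets the Ets2KO arrays against WT replicate 1, the differences were -0.49 for Bcl2l1 and 0.50 for Birc3, both of the opposite sign, against 0.61 for Dapk3 and -0.66 for Bak1, of the same sign, and none passed (limma adjusted p of 0.458 to 0.736). Markers of 2 other cell types were read, with 3 of 5 listed measured for each. The adipocyte mean was 1.17 to 3.97 relative to the array median in Ets2KO and -2.19 to 2.73 in WT, so the groups overlapped. The pericyte mean was 1.05 to 2.83 in Ets2KO and -0.11 to 0.91 in WT. Of the pericyte markers Rgs5 averaged 3.31 in Ets2KO and -1.65 in WT. Pdgfrb averaged 2.36 and 2.32, and Cspg4 0.65 and 0.17. Their part in these readings was not tested.

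In order of group means, DKO was lowest for each of the 6 probe sets as deposited. Above it the order was Ets1KO, Ets2KO, WT from the top for Bcl2l1 and for Bad 1416583_at, Ets1KO, WT, Ets2KO for Bak1 and Bad 1416582_a_at, WT, Ets2KO, Ets1KO for Birc3, and Ets2KO, Ets1KO, WT for Dapk3. Neighbours in these orders overlapped, except Dapk3 in Ets2KO above Ets1KO and the step down to DKO. The SD over WT arrays was largest for Bcl2l1 (0.83) and Birc3 (0.63) and smallest for Bad (0.09 and 0.11). The WT arrays that read high for Bcl2l1 were not those that read high for Birc3: WT replicate 1 had the highest Bcl2l1 and the lowest Birc3 of the 3.

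The genes whose pattern was most like that of Bcl2l1 over the 11 arrays, relative to array medians, were the G protein subunit gene Gnb2 (Pearson r = 0.988), the centromere protein gene Cenpb (r = 0.982) and Ier5l (r = 0.980), out of 11014 other genes. Over the 9 arrays without DKO their r was 0.890, 0.817 and 0.799. For Birc3 they were Micall1 (r = 0.830), the transcription factor gene Ebf2 (r = 0.796) and the actin-binding protein gene Ablim1 (r = 0.796), with r of 0.849, 0.815 and 0.870 over the 9 arrays. The arrays share their groups, so these values describe likeness over few libraries.

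Other genes of the death and survival machinery were taken from lists covering the BCL2 family, IAPs, caspases, mitochondrial death factors, the death receptor pathway, death-associated kinases, and kinases and adaptors that act on Bad. Of 73 such genes listed, 51 were measured. In Ets1KO against WT 0 of 51 passed limma, where 0.00908% of all genes did, 3 of 51 had an unadjusted p below 0.05, where 8.62% of all genes did, and the median difference was -0.05 against 0.01 over all genes. Groups did not overlap for 5 of 51 (9.80%), where 17.9% of all genes had such groups. The largest differences among brighter genes were those of the death-associated kinase Dapk1, at 7.31 ± 0.22 in Ets1KO and 9.39 ± 0.73 in WT (difference -2.08, limma adjusted p = 0.311; -1.12 at its second probe set), of Pawr, which encodes Par-4, a partner of Dapk3 (1.205, limma adjusted p = 0.767), and of pro-survival Bcl2 (0.94, limma adjusted p = 0.625). For Dapk1 all Ets1KO arrays lay below all WT arrays.

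In Ets2KO against WT 0 of 51 passed limma as well, where 0.3% of all genes did; 12 of 51 had an unadjusted p below 0.05, where 19% of all genes did, and the median difference was -0.08, against -0.02 over all genes. Groups did not overlap for 10 of 51 (19.6%), where 26.5% of all genes had such groups. The largest differences among brighter genes were in Tnfaip3, which encodes the NF-kappa-B feedback inhibitor A20, at 7.28 ± 1.05 in Ets2KO and 9.47 ± 1.34 in WT (difference -2.19, limma adjusted p = 0.149), in Birc5, which encodes survivin (-1.85, limma adjusted p = 0.448), and in the BH3-only Bid, at 7.82 ± 0.72 in Ets2KO and 9.45 ± 0.64 in WT (-1.63, limma adjusted p = 0.177; -1.45 at its second probe set). Birc5 varied widely within Ets2KO, between 6.31 and 11.82. Bok, an effector relative of Bak1, differed by -1.28 (limma adjusted p = 0.0942). Of the 51 genes it was the 1 called with all 12 columns or with sex as a covariate. Of all genes 285 and 4 were called in those fits.

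In the arrays labelled DKO 8 of 51 such genes were higher than WT and 4 lower by limma relative to array medians, where 19.8% of all genes were higher and 10.6% lower. As deposited 0 of 51 were higher and 21 lower, where 2.32% and 43.6% of all genes were. The median difference was 0.03 relative to array medians, against 0.18 over all genes, and -0.76 as deposited, against -0.61. Of the 12 genes called relative to array medians, the 4 lower ones were also called as deposited and none of the 8 higher ones was. Only 7 genes were called without DKO replicate 2, and 5 of them were among the 12.

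The 3 pro-survival genes measured besides Bcl2l1 went different ways. Mcl1, like Bcl2l1, read low in DKO, at 10.09 ± 0.05 (n = 2) against 11.76 ± 0.50 in WT (n = 3), with all DKO arrays below all WT arrays on both scales. Its difference was -1.68 as deposited (limma adjusted p = 0.00153) and -0.88 relative to array medians (limma adjusted p = 0.0515). Bcl2l2, which encodes Bcl-w, differed by 0.98 relative to array medians (SE 0.21, limma adjusted p = 0.00769) and by 0.19 as deposited (limma adjusted p = 0.476). Bcl2 differed by 1.43 relative to array medians (limma adjusted p = 0.0770) and by 0.64 as deposited (limma adjusted p = 0.369). Its other probe sets gave -0.52 to 0.88 relative to array medians, so their direction was mixed. The 1 of 3 called was thus Bcl2l2, higher, relative to array medians and Mcl1, lower, as deposited. Of all genes 19.8% were called higher relative to array medians and 43.6% lower as deposited.

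Among 5 other IAP family genes 2 were called higher and 0 lower relative to array medians, and 0 higher and 1 lower as deposited, beside the shares of all genes given above. Birc2, which encodes cIAP1, the nearest relative of the Birc3 protein, differed by 1.09 relative to array medians (limma adjusted p = 0.00355) and by 0.30 as deposited. Xiap differed by 0.73 (limma adjusted p = 0.0123) and by -0.06 as deposited, and its second probe set by -1.89 relative to array medians. Birc6, a large IAP family ubiquitin enzyme, differed by -1.28 as deposited (limma adjusted p = 0.00213) and by -0.48 relative to array medians (limma adjusted p = 0.158), with all DKO arrays below all WT arrays on both scales.

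Beside the counts that follow, 19.8% of all genes were called higher and 10.6% lower relative to array medians, and 43.6% lower as deposited. Among death-promoting genes 2 of 6 BH3-only genes besides Bad were called higher relative to array medians, and 1 of 6, Hrk, was called lower as deposited. Those 2 were Bik (0.97, limma adjusted p = 0.00467; 0.17 as deposited) and Bcl2l11, which encodes Bim (0.91, limma adjusted p = 0.0480; 0.11 as deposited). The other 4 probe sets of Bcl2l11 gave -0.77 to 0.86. Of 5 caspase genes 0 were called relative to array medians, with a median of 0.91, and 1, Casp9, was called lower as deposited. In the death receptor pathway 1 of 12 was called relative to array medians, the adaptor Tradd (0.97, limma adjusted p = 0.0134; 0.18 as deposited; -0.50 to 0.11 at its other probe sets), and 5 of 12 were called lower as deposited. Of 7 mitochondrial genes and IAP antagonists 1 was called lower relative to array medians and 4 as deposited (Htra2, Diablo, Cycs and Aifm1). The protease gene Htra2, called on both scales, read 7.58 ± 0.33 in DKO (n = 2) and 10.21 ± 0.42 in WT (n = 3). It differed by -1.84 relative to array medians (SE 0.26, limma adjusted p = 0.00165) and by -2.63 as deposited. The second Htra2 probe set gave -1.16.

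Among relatives and partners of Dapk3, 1 of 4 was called higher and 1 lower relative to array medians, and 0 higher and 2 lower as deposited. Of all genes 19.8% were called higher and 10.6% lower relative to array medians, and 2.32% higher and 43.6% lower as deposited. Dapk1 differed by -1.72 relative to array medians (limma adjusted p = 0.0426) and by -2.52 as deposited, with -0.91 at its second probe set, while the related kinase Stk17b differed by 1.55 (limma adjusted p = 0.00747) and by 0.76 as deposited (limma adjusted p = 0.0784). The other Stk17b probe sets gave 2.23 and 2.28. Of 8 kinases and adaptors that act on Bad, 1 was called higher and 2 lower relative to array medians, and 0 higher and 5 lower as deposited. The kinase Akt1, which phosphorylates Bad, differed by -0.97 relative to array medians (limma adjusted p = 0.0125) and by -4.96 at its second probe set. Ywhaz, an adaptor that binds phosphorylated Bad, differed by -0.93 (limma adjusted p = 0.0157), with -1.45 to 0.89 at its other probe sets. The Bad kinase Pim2 differed by 1.24 (limma adjusted p = 0.0342; 0.45 as deposited).

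**Figure D4:**
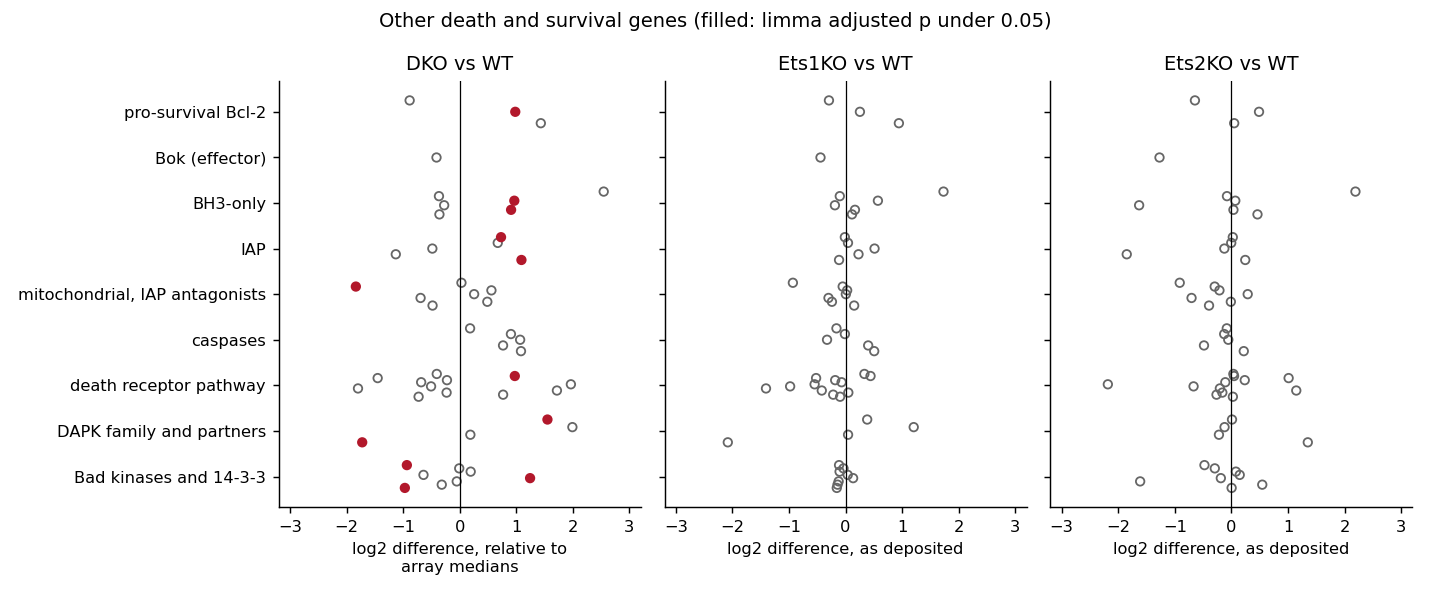
Log2 difference from WT (horizontal axes) of 51 other death and survival genes, 1 point a gene at its brightest probe set, by role (rows) in DKO (relative to array medians), Ets1KO and Ets2KO (as deposited); filled points passed limma at an adjusted p below 0.05. The 12 filled points, 8 to the right of 0 and 4 to the left, are all in the DKO panel.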

How the data were processed

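By the labels, RNA of 12 samples was read on Affymetrix mouse arrays. The deposited values are log2 expression per probe set, made by the authors with RMA (version not stated), per the submitters' processing notes. Of 20523 probe sets, 18824 carry 1 symbol in the platform annotation, 549 several and 1150 none. DKO column 3 matched the mean of DKO columns 1 and 2 in 20521 probe sets, so it does not read as a separate array, and was left out. Arrays have no read depth; their number limits the precision. Linear models (limma 3.58.1 in R 4.3.3) with a mean for each of 4 groups, which leaves 7 residual degrees of freedom, were fitted to all probe sets for the 5 genes, and to the brightest probe set of each of 11015 genes for the other death and survival genes, with p-values adjusted by Benjamini and Hochberg over all features. A call is an adjusted p below 0.05. SE is limma's standard error, and SD is over arrays. Of 100 simulated probe sets changed by a log2 of 1, the fit recovered 43% in Ets1KO and in Ets2KO against WT. Another 100 probe sets changed by a log2 of 3 in the same simulation, which eases the adjustment of p. In the data only 1 probe set passed in Ets1KO and 119 in Ets2KO, so the share recovered there may be lower. Named are all 6 probe sets, the called genes whose groups do not overlap or, with under 3 called, the 3 largest differences among genes brighter than the median gene, and the 3 genes most correlated with Bcl2l1 and with Birc3; Bok, and in DKO Bcl2, Mcl1, Birc6, Hrk, Casp9, Diablo, Cycs and Aifm1, were added after their values were seen. The members and lists were chosen with earlier results of these data known. Alternatives were scale, quantile normalization, all 12 columns, a filter on dim features, 2 groups only, an intensity trend, a replicate block, sex, the probe sets of a gene and each array left out.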

Additional observations from a re-analysis of the deposited data

Results flagged for a closer look

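Dapk3 differed with opposite signs in DKO against Ets1KO and in Ets2KO against WT. Relative to array medians the difference was -3.79 in DKO against Ets1KO, with every DKO array below every Ets1KO array, and 0.51 in Ets2KO against WT, with every Ets2KO array above every WT array. The difference between these effects was not tested, because the low DKO reading was known when the gene was chosen. The Ets2KO difference was not called (limma adjusted p = 0.145 as deposited and 0.127 relative to array medians) and rests on 1 probe set. The 3 Ets2KO arrays and WT replicate 1 read male and the other WT arrays female; with sex as a covariate the Ets2KO difference was 0.61 as deposited (limma adjusted p = 0.458). The arrays labelled DKO bore out their label only in part.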

How the results depend on the processing

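The count of called probe sets of the 5 genes was 0 in Ets1KO and in Ets2KO against WT under all alternatives run, among them leaving out each of the 11 arrays (0 to 0), the replicate block (0 in both) and the fit without the DKO arrays, which was chosen after seeing the data. Adjusted p over these alternatives ran from 0.407 to 0.999 in Ets1KO and from 0.0873 to 0.998 in Ets2KO. Of 117 alternative values in each comparison, 111 and 108 kept their direction. The first Bad probe set (1416582_a_at) changed sign relative to array medians (-0.032 in Ets1KO and 0.00066 in Ets2KO), with quantile normalization in Ets2KO (0.0053) and with the sex covariate (-0.021 and 0.053); without 1 array it ranged from -0.021 to 0.077 in Ets1KO and from -0.12 to 0.048 in Ets2KO. With the sex covariate Bcl2l1 was -0.49 and Birc3 0.50 in Ets2KO. Without 1 array Bcl2l1 ranged from -0.10 to 0.73 in Ets2KO and Bak1 from -0.11 to 0.28 in Ets1KO. Among the 51 other genes none was called in Ets1KO under any alternative. In Ets2KO 1 (Bok, lower) was called with all 12 columns, where 285 of all genes were. With the sex covariate 1 (Bok) was called, where 4 of all genes were. In DKO 12 were called relative to array medians, 21 as deposited, 22 with all 12 columns, 4 with only the 2 groups compared (Bcl2l2, Birc2, Htra2 and Stk17b) and 7 to 16 without 1 array, 11 with the replicate block. With all 12 columns 1 column repeats information of 2 others, and with only 2 groups fewer arrays give the spread; other causes were not tested. The replicate block changed no call of the 5 genes. Same-numbered arrays of different groups had r of -0.31 to 0.10 over 15 pairs, and 0 of 11 arrays correlated best with its own number. These r do not compare whole log2 profiles. With n = 2 or n = 3 a group, they cannot settle whether the numbers pair the arrays. Over all probe sets the replicate block gave 0 calls in Ets2KO, where the fit without it gave 119, and 826 were called with all 12 columns. In the DKO comparisons Bcl2l1, Bak1, Bad and Dapk3 stayed below 0 without any 1 array relative to array medians, the nearest being Bak1 at -0.57 against Ets2KO. The low readings of these same DKO arrays (n = 2) chose the genes, so nothing is read from this.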
